A study of Rattus norvegicus with 2 samples.

Results

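The inositol polyphosphate 5-phosphatase family was described in cultured rat astrocytes through 10 genes, Inpp5a, Inpp5b, Ocrl, Synj1, Synj2, Inpp5d, Inppl1, Inpp5e, Inpp5k and Inpp5f. They were taken from a list of family members and not by their values, but with earlier results of these data known. All 10 were on the array, of 14218 named genes in all, with 14 of the 20832 probe sets that carry a single gene symbol. The 5ppase culture expressed 5ppase and a red fluorescent protein (RFP) from 1 bicistronic vector (5ppase-IRES2-RFP), and the control culture expressed RFP from the same kind of vector without 5ppase (IRES2-RFP). Both were astrocytes, the main supporting glia of the brain, grown from hippocampus of Sprague-Dawley rat embryos of normal genotype at embryonic day 18. Each group had 1 array, and the series sets a culture without calcium signalling (5ppase) against one with active signalling (control). The labels give neither the phosphatase gene nor the species of the insert, nor its promoter or the share of cells that carried it, and 1 label writes the insert as 55ppase.

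Enzymes of this family remove the phosphate at the 5 position of the inositol ring. The type I enzyme, encoded by Inpp5a, acts on soluble inositol trisphosphate (IP3), the messenger that opens calcium channels of the endoplasmic reticulum, and so ends its signal. The other members act mainly or also on membrane phosphoinositides, above all on phosphatidylinositol bisphosphate (PIP2), the lipid from which IP3 is made, and on phosphatidylinositol trisphosphate (PIP3), the product of PI 3-kinases. In astrocytes, IP3 is the main route by which receptors coupled to phospholipase C raise calcium.

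Most of the family had similar signals on both arrays. Of the 10 genes, 7 were bright enough to be compared, and 5 of these lay within 1.5-fold at their brightest probe set. Inpp5b was 1.5-fold higher in 5ppase and Inpp5e was 1.99-fold lower, so that 2 of 7 were at least 1.5-fold apart, where 10.7% of the 8261 compared genes were (5.25% higher and 5.46% lower in 5ppase). None of the 7 reached 2-fold, as 2.92% of compared genes did. The median log2 ratio of 5ppase over control was 0.07 over the 9 measured members, 6 of them above and 3 below 0, and -0.01 over all 10255 measured genes. Of those 10255 genes, 4988 were above 0 and 5267 below. Signals are the authors' deposited intensities on a linear scale. A gene was measured where its mean signal exceeded a floor of 62.0, the 40th percentile of both arrays pooled, and compared where both arrays exceeded that floor and at least 1 reached 208, the 60th percentile. There were no replicates, so no test was made, no spread between cultures is known, and precision is limited by the number of arrays.

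**Figure D1:**
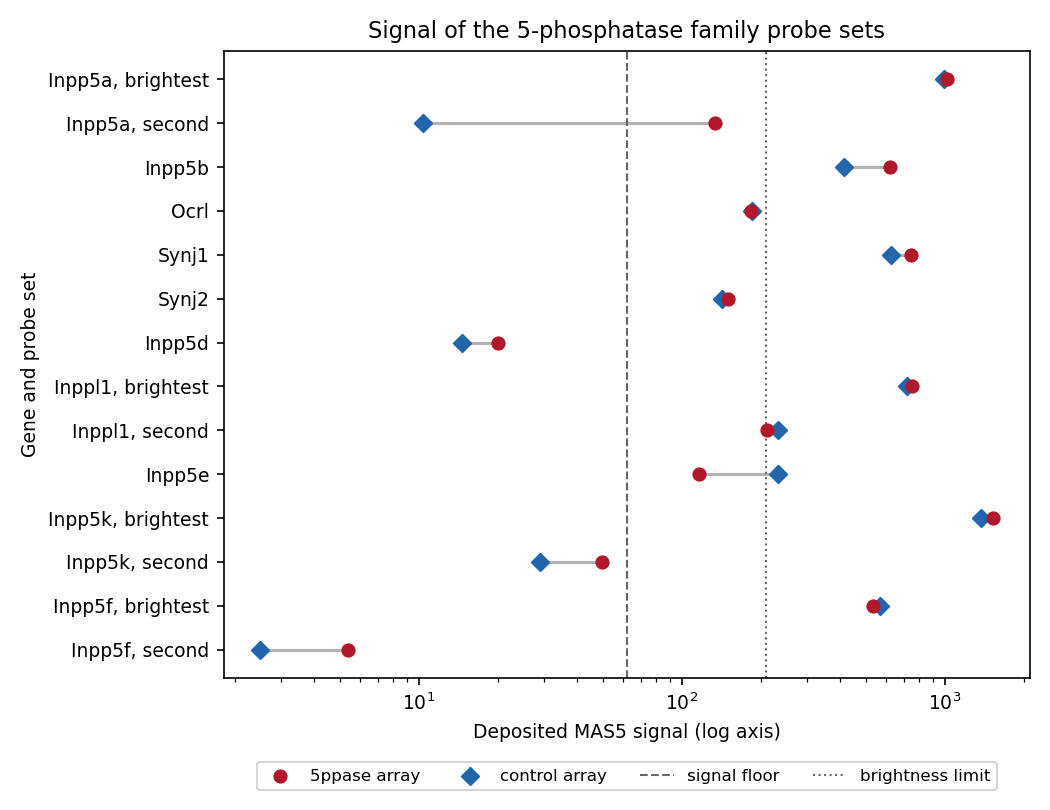
Deposited MAS5 signal (log axis) of each of the 14 family probe sets, with the 5ppase array as circles and the control array as diamonds. The dashed line is the floor of 62.0 and the dotted line the limit of 208. The symbols of most probe sets right of the floor lie close together, Inpp5e is lower and Inpp5b higher in 5ppase, and the second Inpp5a probe set crosses the floor.

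The median signal was 109 in 5ppase and 107 in control, with maxima of 49734 in 5ppase and 43892 in control. As the only internal repeat, pairs of compared probe sets of the same gene (1883 genes) gave a per-probe-set SD of 0.26 on the log2 scale, which holds no variation between cultures. Of 17 astrocyte markers on the array 13 were measured, 3 of them higher and 10 lower in 5ppase, with a median log2 ratio of -0.73 and summed signals of 57308 in 5ppase and 82957 in control. Gfap, the astrocyte intermediate filament, gave 7408 in 5ppase and 17525 in control, while the glutamate transporter gene Slc1a2 exceeded the floor on neither array (25.7 in 5ppase and 24.1 in control). Of 11 fibroblast markers 8 were measured, 2 of them higher and 6 lower in 5ppase, with a median of -0.49 and summed signals of 108914 in 5ppase and 116349 in control. They ran from Mgp (-3.26), Igfbp5 (-2.06), Fbln1 (-0.83) and Pdgfra (-0.66) to bright collagens such as Col1a1, at 32414 in 5ppase and 32792 in control. Fewer cells of a type and less RNA per cell cannot be told apart in such samples, and the part of these marker differences in the values below was not tested.

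Inpp5a encodes the type I enzyme, the one dedicated to soluble inositol phosphates. Its brightest probe set gave 1022.5 in 5ppase and 993.9 in control, a log2 ratio of 0.04. Its second probe set gave 133.6 in 5ppase and 10.4 in control. The 2 probe sets thus did not read alike: the bright one was level, and the dim one lay above the floor on the 5ppase array only, where its signal was 2.15 times the floor. Such a step was uncommon but not confined to this probe set, since 71 of 6650 probe sets at or under the floor in control (1.07%) reached 133.6 or more in 5ppase, and 53 of 6473 (0.819%) did so in the opposite direction. Which stretch of the message either probe set reads, and whether the insert of the vector would bind to it, is not given in the sources used here, so neither value checks the labels.

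The type II enzymes, Inpp5b and Ocrl, are close relatives that act on PIP2 of endosomes and of the secretory pathway, and Ocrl is the gene mutated in the human Lowe syndrome. Inpp5b gave 618.7 in 5ppase and 412.4 in control, a log2 ratio of 0.59 from its single probe set. That value only just passes the limit of 1.5-fold. Ocrl gave 183.2 in 5ppase and 184.4 in control (log2 ratio -0.01), above the floor on both arrays but under the limit of 208, so it was measured and not compared. The arrays thus read apart for Inpp5b and level for Ocrl, and the difference between their ratios was not tested.

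The synaptojanins join a 5-phosphatase domain to a Sac domain, which removes other ring phosphates, and strip PIP2 from clathrin-coated vesicles. Synj1, the form abundant at nerve terminals, gave 746.2 in 5ppase and 627.0 in control, a log2 ratio of 0.25. Synj2, the more widely expressed form, gave 149.9 in 5ppase and 142.5 in control (0.07) and was measured but too dim to be compared. Synj1 was the third furthest from 0 in the family, at about the per-probe-set SD of 0.26. Neuron markers went both ways: 8 of 17 on the array were measured, 4 of them higher and 4 lower, with summed signals of 13631 in 5ppase and 7127 in control. The sum was mostly Stmn2, a tubulin regulator of growing neurites, at 11065 in 5ppase and 3766 in control. Of the other markers bright enough to be compared, Tubb3 was higher, at 290 in 5ppase and 87.9 in control. Gad1 (422 in 5ppase and 998 in control) and Map2 (1210 in 5ppase and 1737 in control) were lower. Synaptic genes of the list differed: Snap25 did not exceed the floor (7.2 in 5ppase and 7.7 in control). Syp (159 in 5ppase and 106 in control) and Syn1 (119 in 5ppase and 144 in control) exceeded the floor on both arrays, but were too dim to be compared. The part of neuronal RNA in the Synj1 signal was not tested.

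The SHIP enzymes turn PIP3 into phosphatidylinositol bisphosphate that keeps its 3-phosphate, and so act on the PI 3-kinase pathway. Inpp5d, or SHIP1, is the form of blood cells and of microglia, the brain's macrophages. Its signal was 20.0 in 5ppase and 14.6 in control. It was the only member of the family that did not exceed the floor at any probe set, so no ratio is given for it. Microglial markers were mostly dim as well: 4 of 18 on the array were measured, all 4 higher in 5ppase, with a median log2 ratio of 0.28. Of the 18, 6 exceeded the floor in 5ppase and 4 in control. The summed signals were 4652 in 5ppase and 2959 in control, most of it from Tmem119 and Cd14. The leukocyte gene Ptprc (34.5 in 5ppase and 4.4 in control) and the integrin Itgam (5.6 in 5ppase and 9.6 in control) did not exceed the floor either. Csf1r exceeded it on both arrays, at 77.5 in 5ppase and 68.8 in control.

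Inppl1, or SHIP2, is the form of most other tissues, and it was the one member with both of its probe sets compared. Its brightest probe set gave 754.3 in 5ppase and 720.5 in control, a log2 ratio of 0.07, and its second gave 210.7 in 5ppase and 232.6 in control, a log2 ratio of -0.14. The probe sets thus pointed opposite ways, each by less than the per-probe-set SD of 0.26, so no direction can be given for Inppl1. Over probe sets instead of genes, 8 of the 14 were compared and the same 2, of Inpp5b and Inpp5e, were at least 1.5-fold apart, beside 11.4% of all 10647 compared probe sets.

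Inpp5e is the 5-phosphatase of the primary cilium, where it keeps PIP2 out of the ciliary membrane, and its loss causes Joubert syndrome in humans. It gave 116.6 in 5ppase and 231.5 in control, a log2 ratio of -0.99 and the furthest from 0 in the family. It has 1 probe set, so nothing on the arrays repeats the value. It also passed the limit of 208 through the control array alone: a gene of this mean signal could be compared only if its arrays differed. It is therefore better set beside the 724 other genes above the floor on both arrays with a mean signal within 1.2-fold of its own, whatever their brighter array. Of these, 27 had a ratio as low or lower, the 5th and 95th percentiles were -0.94 and 0.91, and 27.5% were at least 1.5-fold apart. For the brighter Inpp5b, 52 of 1119 other genes of like signal had a ratio as high or higher, with percentiles of -0.58 and 0.52 and 9.56% at least 1.5-fold apart.

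**Figure D2:**
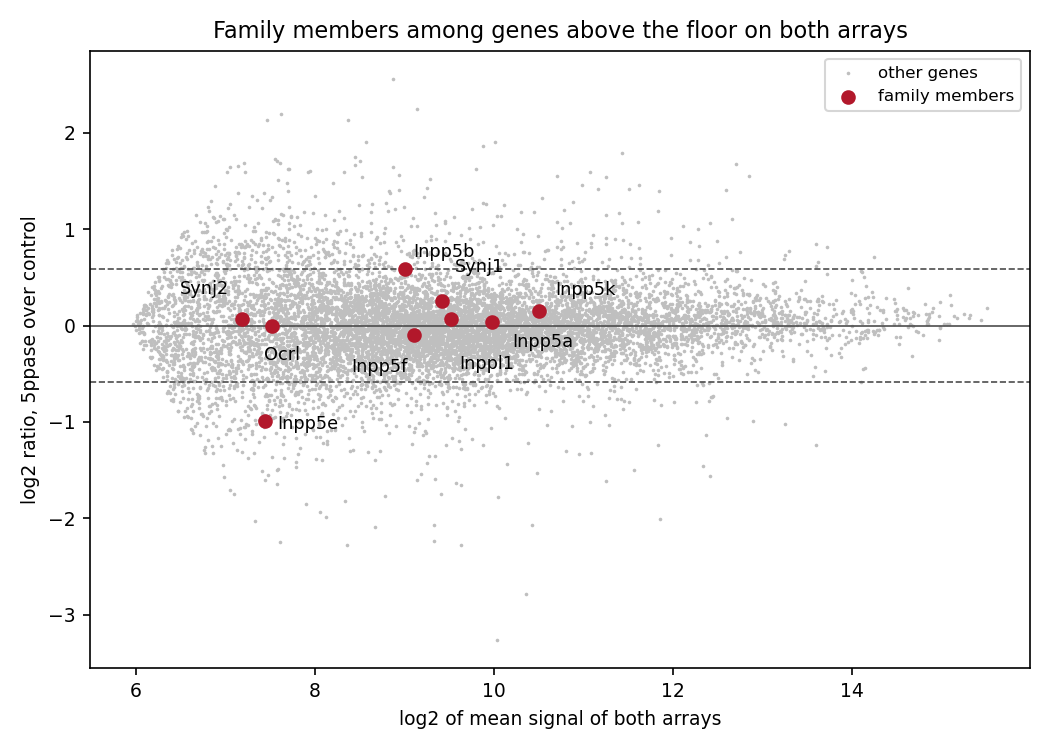
Log2 ratio of 5ppase over control against the log2 of the mean signal, for each gene above the floor on both arrays at its brightest probe set (grey) and the 9 family members among them (red). Dashed lines mark 1.5-fold. Ratios fan out towards low signal, where Inpp5e (-0.99), Ocrl (-0.01) and Synj2 (0.07) lie.

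Inpp5k and Inpp5f complete the family. Inpp5k, also called SKIP for its abundance in skeletal muscle and kidney, acts on PIP2 and PIP3 near the endoplasmic reticulum, and gave 1528.1 in 5ppase and 1378.5 in control (log2 ratio 0.15). Its second probe set stayed below the floor throughout, at 49.7 in 5ppase and 29.0 in control. Inpp5f, or Sac2, was named for this family but carries a Sac domain and removes the 4-phosphate of endosomal phosphatidylinositol phosphate. It gave 533.5 in 5ppase and 569.4 in control (-0.09), and its second probe set read 5.4 in 5ppase and 2.5 in control. Both genes were thus level to within 1.5-fold at the probe set that exceeded the floor. In all, 3 family probe sets lay at or under the floor on both arrays and 1, that of Inpp5a, exceeded it on 1 array only.

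**Figure D3:**
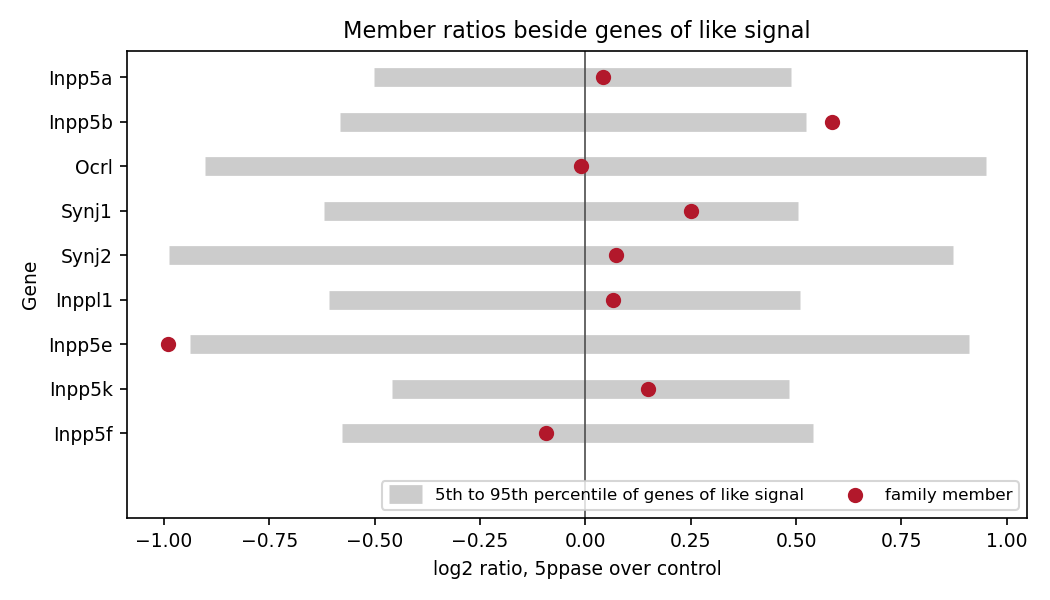
Log2 ratio of 5ppase over control for the 9 members above the floor on both arrays (points), beside the 5th to 95th percentile of the ratios of other genes with a mean signal within 1.2-fold of that member's (grey bars). Inpp5b (0.59) lies just above its bar, which ends at 0.52, and Inpp5e (-0.99) just below its bar, which ends at -0.94. The other 7 lie within theirs. By definition each bar leaves out the genes of like signal below the 5th and above the 95th percentile.

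The enzymes and partners around the family were described through 10 lists. Of their 119 genes on the array 105 were measured and 91 compared. Of these 91, 5 were at least 1.5-fold higher in 5ppase, 2 were as much lower, and 84 lay within 1.5-fold. That is 7.69% apart, beside 10.7% of all compared genes.

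The PI 3-kinases make PIP3, the substrate of the SHIP enzymes. Of 7 compared genes 1 was at least 1.5-fold higher and 1 lower, and the median was -0.18 over 8 measured genes. Pik3r1, the main regulatory subunit, gave 564 in 5ppase and 1327 in control (log2 ratio -1.23), and Pik3r3, another regulatory subunit, gave 733 in 5ppase and 464 in control (0.66). These 2 subunits went opposite ways, and each has 1 probe set. The other compared regulatory subunits of the list lay within 1.5-fold. In the Akt branch, which PIP3 activates, all 7 compared genes lay within 1.5-fold with a median of -0.02, among them the kinases Akt1 (0.10) and Pdpk1 (-0.23).

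The PI 4-kinases and PIP kinases include the enzymes that make PIP2 and its precursor. Of 9 compared genes 1 was at least 1.5-fold higher and none lower, with a median of 0.01 over 11 measured genes. The exception was Pip4k2a, a kinase that makes PIP2 from another phosphatidylinositol phosphate, at 431 in 5ppase and 259 in control (0.74). Its second probe set gave 199.1 in 5ppase and 109.5 in control (0.86), in the same direction. Of the other phosphoinositide phosphatases, 11 of 12 compared genes lay within 1.5-fold, with a median of -0.03. The myotubularin Mtmr1 was lower, at 84.0 in 5ppase and 208.6 in control (-1.31), but it passed the limit of 208 through the control array alone, as Inpp5e did. Its second probe set gave 149 in 5ppase and 135 in control (0.14). Inpp5j, a further 5-phosphatase outside the 10 members, was under the floor on both arrays, at 10.7 in 5ppase and 12.3 in control.

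All 10 compared kinases and phosphatases of soluble inositol phosphates lay within 1.5-fold, with a median of -0.07, against 0.10 over all 13 measured genes. The brightest were Minpp1 (0.10) and Bpnt2 (-0.14). The probe sets of Bpnt2 did not all read level. Another gave 344 in 5ppase and 192 in control (0.84), while the remaining ones gave -0.02 and -0.11. Of the 3 IP3 receptors, the channels that IP3 opens, 2 were compared and went opposite ways: Itpr1 gave 2300 in 5ppase and 1516 in control (0.60), and Itpr3, named after its values were seen, gave 297 in 5ppase and 439 in control (-0.56). Their median was 0.02. With Itpr2, too dim to be compared at 117 in 5ppase and 79.4 in control (0.57), it was 0.57. Over the same 3 genes it was 0.06 with the mean of probe sets, so it depends on the choice of probe set.

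Partners of single members were mostly level too. Of 15 compared endocytic partners of the synaptojanins 2 were at least 1.5-fold higher and none lower. The median was 0.11 over 18 measured genes, 13 of them above 0, beside 4988 of all 10255 measured genes. The scaffold Itsn2 gave 238 in 5ppase and 102 in control (1.22), but passed the limit of 208 through the 5ppase array alone, as Inpp5e did through control. Its next probe sets went the other way, at 111 in 5ppase and 160 in control (-0.52) and at 37.4 in 5ppase and 96.9 in control. Dnm2, the dynamin that cuts endocytic vesicles free in most cells, gave 374 in 5ppase and 249 in control (0.59). This only just passes the limit of 1.5-fold.

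Partners of Ocrl and Inpp5b, adaptors and small GTPases, had 12 of 12 compared genes within 1.5-fold and a median of -0.06, with the GTPases Rab1a (0.09) and Cdc42 (0.21) as the brightest. Adaptors of the SHIP enzymes had 10 of 10 within 1.5-fold and a median of 0.06. The brightest of them were filamin A (Flna), which anchors SHIP2 to actin, at 0.48, and the phosphatase Ptpn11 at 0.18.

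Ciliary partners of Inpp5e had 7 of 7 compared genes within 1.5-fold and a median of -0.01 over 9 measured genes. Arl3, a GTPase that unloads lipidated cargo such as Inpp5e in the cilium, gave 2109 in 5ppase and 3102 in control (-0.56), and Tulp3, which carries membrane proteins into the cilium, gave 1917 in 5ppase and 1884 in control (0.03). Tmem67, a protein of the ciliary gate named after its values were seen, gave 382 in 5ppase and 551 in control (-0.53) and 121 in 5ppase and 182 in control at its second probe set (-0.59).

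**Figure D4:**
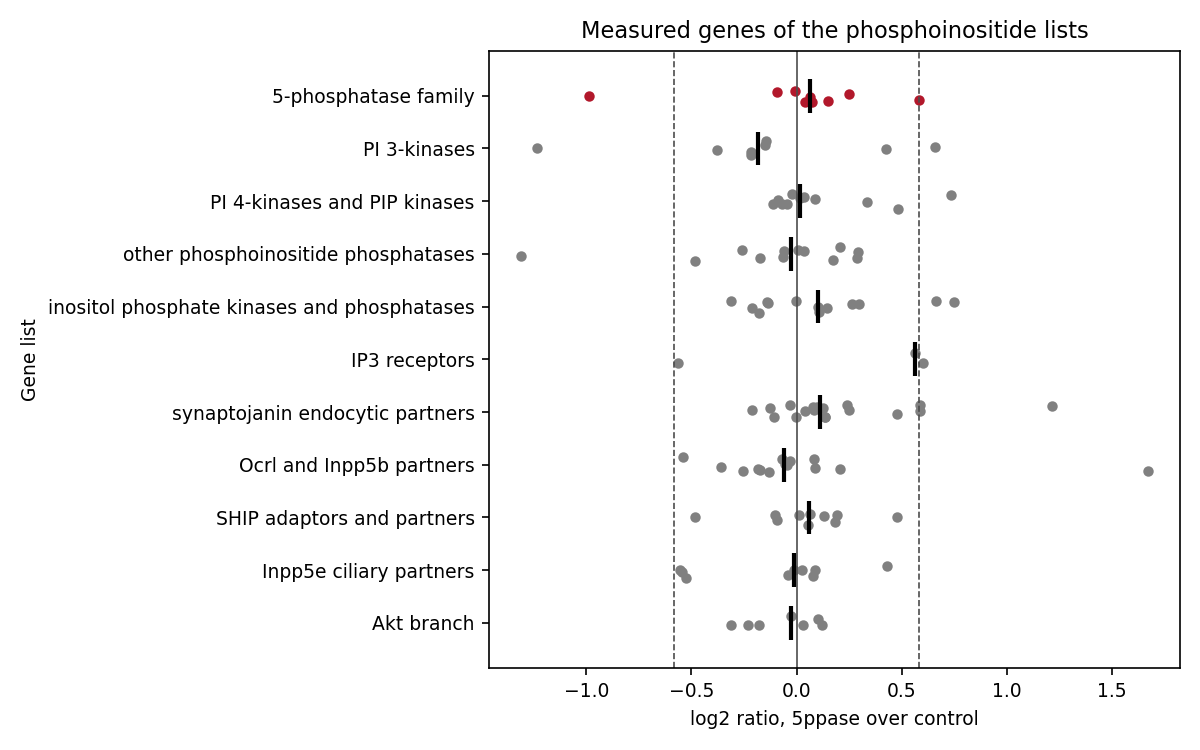
Log2 ratio of 5ppase over control for each measured gene (points) of the family (red) and of the 10 lists of surrounding enzymes and partners (grey), with the median of each list as a black bar and dashed lines at 1.5-fold. Medians lie between -0.18 and 0.11 apart from that of the 3 IP3 receptors at 0.57, which is the value of Itpr2, between Itpr3 at -0.56 and Itpr1 at 0.60, and the family has 1 member near -1 and 1 at the upper dashed line.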

How the data were processed

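RNA of 1 5ppase and 1 control culture was measured on single-colour Affymetrix arrays. Per the labels' protocols, total RNA was extracted with RNeasy and labelled with biotin as cRNA. The deposited values are linear intensities per probe set; the submitters' processing notes name MAS5, with no version or settings. No detection calls or depths were used, and 0 sample columns were left unused.

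Names came from the platform's probe annotation (20832 of 31099 with 1 symbol, 436 with several, 9831 not listed) and a RefSeq gene table (GRCr8) used for names only. Both arrays were brought to 1 trimmed mean, with 2% removed at each end (500.2 on both as deposited). Signals under the floor were raised to it before log2, which understates ratios of dim genes, and a gene was represented by its brightest probe set. No test was run with 1 array per group. The calculation was tested on simulated data, in Python 3.11.15 with statsmodels 0.14.6.

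Members and lists were chosen with earlier results of these data known. All members were named; of each pathway list, the compared genes at least 1.5-fold apart, at most 4, or else the 2 brightest; and Gfap. Lists of markers for astrocytes, microglia, neurons, fibroblasts and oligodendrocytes were also counted. With 2 arrays no likeness of pattern between genes was computed. Alternatives changed the scaling, the floor, the fold and the choice of probe set.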

Additional observations from a re-analysis of the deposited data

How the results depend on the processing

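Inpp5b and Inpp5e kept their signs under each alternative that gave them a value, with log2 ratios of 0.55 to 0.63 and of -1.02 to -0.95. Each has 1 probe set, above the floor on both arrays. A lower floor or another choice of probe set therefore could not change either value. The count of compared members at least 1.5-fold apart was 2, as in the report, with 3 exceptions among scalings and floors. It was 1 with a common median (Inpp5e alone), 1 with the floor at the 60th percentile (Inpp5b alone, since Inpp5e then lay under the floor in 5ppase) and 1 with a pseudocount of 6.4 and no floor (Inpp5e alone). At 2-fold it was 0 of 7, beside 2.92%. It was 0 of 1 with second brightest probe sets, which only Inppl1 had bright enough to compare, beside 12.8%. The mean over probe sets moved Inpp5a to 0.57, through its dim second probe set. The pseudocount gave Inpp5d, under the floor otherwise, a ratio of 0.33. The family median stayed above 0, from 0.04 to 0.48, the highest over the 2 members with a measured second probe set. Inppl1 turned negative with the mean of its probe sets (-0.04) and with the second (-0.14), and Ocrl turned positive after loess (0.0035). With the pseudocount 26.6% of all genes were at least 1.5-fold apart. The IP3 receptor median was 0.06 with the mean of probe sets. That of the soluble inositol phosphate enzymes was -0.25 over 3 second probe sets. The median of the synaptojanin partners was 0.04 with the mean of probe sets and -0.06 over 7 second probe sets. No paired analysis was possible because each group has 1 array, and no array could be left out.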

Other observations

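Pheta1, which encodes an endosomal adaptor bound by Ocrl and Inpp5b, was chosen after its values were seen. Its 3 probe sets disagreed: the brightest gave 198 in 5ppase and 61.4 in control, another gave 145 in 5ppase and 39.1 in control, and the remaining one gave 76.6 in 5ppase and 143 in control. Only that last probe set exceeded the floor of 62.0 on both arrays. Ippk, the kinase that makes inositol hexakisphosphate, was also chosen after its values were seen, and gave 165 in 5ppase and 98.1 in control (log2 ratio 0.75) at its single probe set, too dim to be compared. Of 10 oligodendrocyte markers 3 were measured, 1 of them higher and 2 lower, with summed signals of 1606 in 5ppase and 2894 in control. The largest difference was that of Cldn11, at 47.2 in 5ppase and 1371 in control. Cnp was also lower, at 737 in 5ppase and 996 in control, and Cspg4 was higher, at 629 in 5ppase and 262 in control.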
